A study of Mus musculus with 2 samples.

Results

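The translation initiation factor genes described here are all genes of the mouse annotation whose symbol starts with Eif and a digit, with genes named as pseudogenes left out. The annotation holds 56 such symbols, and 54 of them are among the 27321 genes of the 2 gene count tables. Eif2c5 and Eif4ebp3 are not in the tables, and Eif4e1b is listed in 1 of the 2 tables only. The 54 genes cover the factors that choose the start codon, the eIF2 complex with its exchange factor and its kinases, the subunits of eIF3, the cap-binding complex eIF4F with its regulators, and eIF5A and eIF6.

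Initiation is the step of translation at which a small ribosomal subunit, carrying the initiator tRNA on eIF2, is brought to the capped end of an mRNA by eIF4F and eIF3, scans to a start codon and is joined by the large subunit. The pathway is controlled mainly at the cap, where 4E-binding proteins compete for eIF4E downstream of mTORC1, and at eIF2, whose phosphorylation slows the return of the factor to its active form by eIF2B. In muscle stem cells (MuSCs), quiescence is known for small cells, low RNA content and restrained protein synthesis, with phosphorylated eIF2 as one of the brakes, and activation for growth and renewed translation.

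The cells came from Pax7creERT2;R26-eYFP mice on a C57BL6 background, in which tamoxifen given from 3 months of age (20 mg/ml, 5 daily injections) turned on YFP in cells expressing Pax7. YFP-sorted cells from uninjured hindlimb muscle (quiescent) and from muscle collected 72 h after an injection of 1.2% barium chloride (activated) were captured together on the 10x Chromium v2 platform, which tags 1 end of each mRNA molecule with a cell barcode and a unique molecular identifier (UMI). The emulsion was split into an aliquot of 10%, sequenced with Illumina short reads and Nanopore long reads, and an aliquot of 90%, sequenced with short reads only. No label says which barcode came from which muscle, and the sex of the mice is not in the labels, so the cells were compared by their UMI totals.

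Shallow barcodes were those of 3000 to 15000 UMIs with no UMI of the cell cycle genes Rrm2, Top2a and Cdk1, and deep barcodes were those of at least 20000 UMIs. The 10% aliquot gave 157 shallow barcodes (median 6729 UMIs) and 79 deep barcodes (median 65499 UMIs), and the 90% aliquot gave 1243 (median 4680) and 606 (median 47106). Levels are UMIs scaled to a total of 1000000 UMIs over the summed barcodes (CPM), and log2 ratios are shallow over deep after adding 10 CPM to each side. Since only 1 end of a molecule is counted, the levels are not scaled by gene length. There was 1 capture and no replicate culture or animal, so no test was run, and every interval below covers counting error at 95% only. The aliquots are also not independent: all 157 shallow and all 79 deep barcodes of the 10% table are listed in the 90% table too, and the UMI total in the 90% table was 0.814 of that in the 10% table at the median over 269 shared barcodes. A gene was called higher or lower where both aliquots differed by at least 1.5-fold in the same direction, among the 6506 genes with a mean level of at least 10 CPM.

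The groups carried the markers of different MuSC states. Of 10 markers of quiescent MuSCs, 8 were called higher in shallow barcodes, where 18.4% of all genes were. The 10 markers summed to 1862 CPM in shallow against 129 CPM in deep barcodes of the 10% aliquot and 2168 against 128 CPM in the 90% aliquot. Most of the shallow sum was Msc (750 and 784 CPM in the 10% and 90% aliquots) and Sdc4 (581 and 755 CPM). Pax7 was at 27.8 and 18.8 CPM there, and Hey1 and Cd34 were not called. Of 9 markers of activated or proliferating myoblasts, 6 were lower in shallow barcodes. Besides Myog these were the cell cycle genes Mki67, Ccnb1, Ccna2, Pcna and Tyms. Shallow barcodes were chosen without UMIs of Rrm2, Top2a and Cdk1, so lower levels of such genes follow at least in part from that choice. Another 2 of the markers, Myod1 and Myf5, were higher. With these 2 included, the summed level of the list was higher in shallow barcodes, at 1581 against 838 CPM in the 10% aliquot and 1737 against 1058 CPM in the 90% aliquot. Markers of other cells were present as well. Immune markers summed to 336 CPM in shallow and 90.4 CPM in deep barcodes of the 10% aliquot and to 273 and 2.98 CPM in the 90% aliquot, fibro-adipogenic markers to between 33.2 and 260 CPM, and endothelial markers to at most 10.8 CPM. In shallow barcodes most of the fibro-adipogenic sum was Col3a1, at 148 CPM in the 10% aliquot and 218 CPM in the 90% aliquot. Pdgfra, of the same list, had 0 UMIs there in both aliquots. Which cells the Col3a1 UMIs came from was not tested. The sexes differed too: 723 of 1243 shallow barcodes of the 90% aliquot held UMIs of Y-linked genes (Ddx3y, Uty, Kdm5d or Eif2s3y) without Xist and 55 held Xist without Y-linked genes, against 1 and 547 of 606 deep barcodes. Sex and the difference between shallow and deep barcodes therefore cannot be told apart over whole groups.

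As a set, the initiation factor genes took up nearly the same share of all UMIs in both groups, while single members moved in both directions. The 54 genes summed to 8892 CPM in shallow and 8539 CPM in deep barcodes of the 10% aliquot, a ratio of 1.04, and to 10075 and 9834 CPM in the 90% aliquot, a ratio of 1.02. Per barcode this was 63.1 against 551 UMIs in the 10% aliquot and 52.3 against 485 UMIs in the 90% aliquot, where the mean total per barcode differed 9.09-fold and 9.50-fold. Of 46 members that passed the filter on low levels, 45 had more UMIs per deep than per shallow barcode in both aliquots, the exception being Eif2s3y. The groups were chosen by UMI total, so almost any gene would have more UMIs per deep barcode, and nothing is read from this count. Fewer cells of a kind and less RNA per cell cannot be told apart in sums of this sort.

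Relative to all UMIs, 6 of the 46 members were called higher in shallow barcodes, a share of 13.0% where 18.4% of all genes tested were called higher. Another 12 were called lower, a share of 26.1% where 28.7% of all genes were called lower. The members' median log2 ratio was −0.10 in the 10% aliquot and −0.21 in the 90% aliquot, beside −0.13 and −0.14 over all genes tested. Both shares of called members thus lay near, and somewhat below, those of all genes. Without barcodes that held a UMI of Ptprc, Tyrobp, Pecam1, Cdh5 or Pdgfra, markers of other cells, 5 members were higher and 11 lower, beside 17.8% and 29.5% of all genes. With the barcodes of the 90% table that the 10% table also lists left out, 6 were higher and 11 lower, beside 18.1% and 28.3% of all genes. The 8 members that did not pass the filter were the 4 eIF2 kinases, Eif2d, Eif4enif1, Eif5a2 and Eif4e1b.

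**Figure D1:**
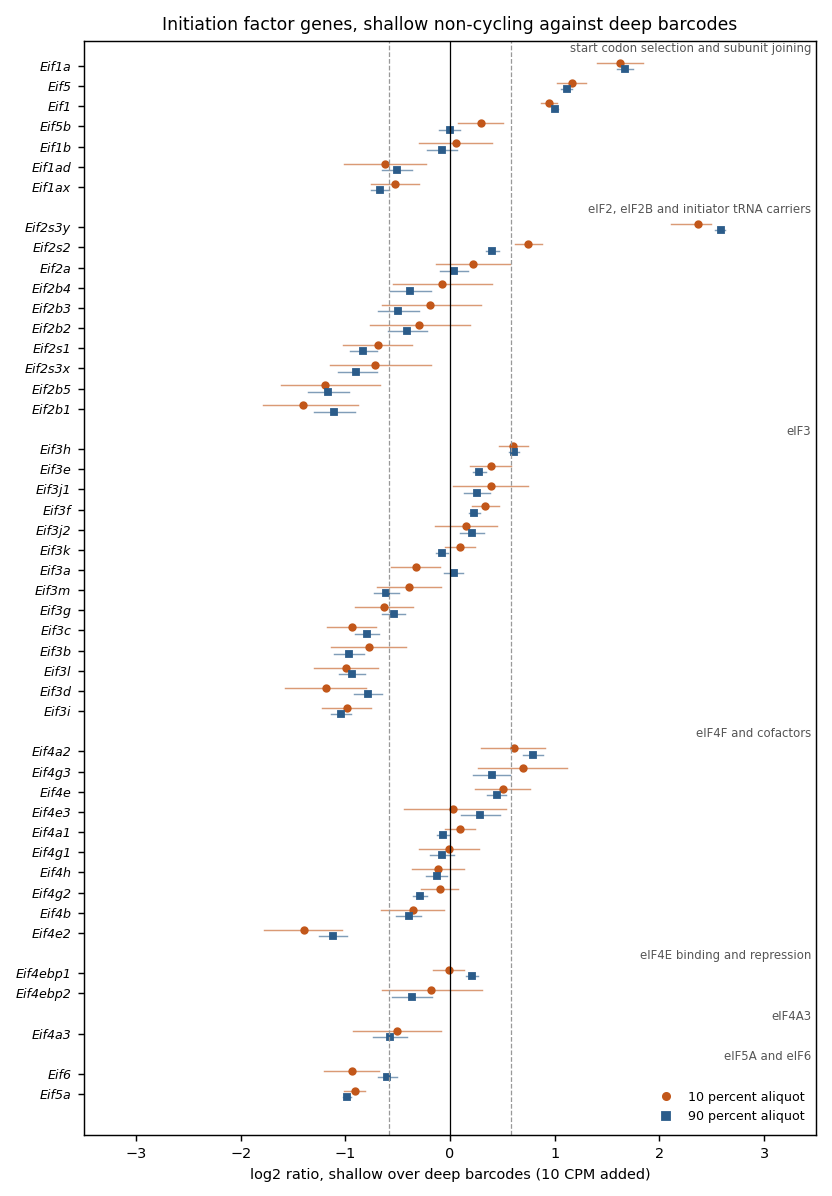
Log2 ratio of shallow over deep barcodes (CPM plus 10 in each group) for the 46 members that passed the filter on low levels, ordered by role, with 1 point for each aliquot and bars for 95% counting intervals. Eif1a, Eif5 and Eif1 lie right of the 1.5-fold line in both aliquots, and Eif5a, Eif4e2, Eif2b1 and several eIF3 subunits lie left of it.

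The factors that set up start codon selection included 3 of the 6 higher members and none of the lower ones, with 7 genes tested. The 3 are 42.9% of the 7, beside 18.4% of all genes called higher and 28.7% called lower. Eif1, whose product holds the scanning ribosome open and rejects poor start codons, was at 1685 CPM in shallow and 869 CPM in deep barcodes of the 10% aliquot and at 2039 and 1015 CPM in the 90% aliquot (log2 ratios 0.95 and 1.00). Eif1a, one of the genes for eIF1A, which works beside eIF1 in the decoding site, was at 231 and 67.9 CPM in the 10% aliquot and at 303 and 88.2 CPM in the 90% aliquot (1.63 and 1.67). Eif5, the GTPase-activating protein that triggers eIF2 once a start codon is found, was at 541 and 237 CPM in the 10% aliquot and at 615 and 278 CPM in the 90% aliquot (1.16 and 1.12). For all of these the shallow value was the higher in each aliquot, and the aliquots' ratios lay close together. Since the aliquots come from 1 capture and share barcodes, that closeness is not a replicate of the comparison.

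The other 4 members of the group were not called. Eif1ax, the X-linked gene for eIF1A, had log2 ratios of −0.52 and −0.67, opposite in sign to Eif1a, and passed the limit in the 90% aliquot only. Eif1ad, a gene with an eIF1A-like domain, stood at −0.62 and −0.51. Eif1b and Eif5b, the latter the GTPase of subunit joining, lay between −0.08 and 0.29. Summed over the group, the level was 2882 against 1655 CPM in the 10% aliquot and 3345 against 1900 CPM in the 90% aliquot, ratios of 1.74 and 1.76.

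Single barcodes spread widely around these sums. In the 90% aliquot the middle of the shallow barcodes ran from 1316 to 2755 CPM of Eif1 between the quartiles with a median of 1972, and that of the deep barcodes from 783 to 1226 CPM with a median of 993. The quartile ranges of Eif1 did not overlap in that aliquot, nor did they in the 10% aliquot, where they ran from 1118 to 2262 CPM and from 684 to 1049 CPM. For Eif5 they did overlap, from 235 to 907 CPM in shallow and from 173 to 350 CPM in deep barcodes of the 90% aliquot. Pseudogenes named after Eif1 have rows of their own, and their UMIs summed to 403 and 264 CPM in the 10% aliquot and to 354 and 220 CPM in the 90% aliquot. With them added, the log2 ratios of Eif1 were 0.88 and 0.95.

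Of 10 tested members of the eIF2 complex, its exchange factor eIF2B and the other carriers, 4 were lower in shallow barcodes and 1 was higher, beside 28.7% and 18.4% of all genes. Eif2b1, the alpha subunit of eIF2B, was at 5.38 and 30.8 CPM in the 10% aliquot and at 8.37 and 29.7 CPM in the 90% aliquot (log2 ratios −1.41 and −1.11), and its call was lost in the long reads, at −0.58. Eif2b5, the catalytic epsilon subunit, was at 7.18 and 29.4 CPM in the 10% aliquot and at 8.68 and 32.0 CPM in the 90% aliquot (−1.20 and −1.17). The other eIF2B subunits, Eif2b2, Eif2b3 and Eif2b4, had ratios of the same sign but between −0.08 and −0.49, and none was called.

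Among the eIF2 subunits, Eif2s1, which encodes the alpha subunit that the kinases phosphorylate, was at 60.1 and 103 CPM in the 10% aliquot and at 66.8 and 126 CPM in the 90% aliquot (−0.69 and −0.83). Eif2s2, the beta subunit and the most abundant member of the group, was not called, with 609 and 359 CPM in the 10% aliquot and 376 and 282 CPM in the 90% aliquot (0.75 and 0.40). The alpha and beta subunits thus had ratios of opposite sign in both aliquots.

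The gamma subunit is encoded on both sex chromosomes, and its genes moved with the sex-linked UMIs of the barcodes. Eif2s3y, the Y-linked gene, had 50 UMIs in shallow and 3 in deep barcodes of the 10% aliquot and 333 and 7 in the 90% aliquot, or 44.9 against 0.588 CPM and 51.6 against 0.234 CPM. Eif2s3x, the X-linked gene, was at 7.18 and 18.2 CPM in the 10% aliquot and at 5.73 and 19.3 CPM in the 90% aliquot (−0.72 and −0.90). Xist, the transcript of the inactive X chromosome, was lower in shallow barcodes in the same way, at 54.7 and 288 CPM in the 10% aliquot and at 73.6 and 442 CPM in the 90% aliquot. The carrier Eif2a, which can deliver the initiator tRNA without eIF2, had log2 ratios of 0.22 and 0.04.

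The 4 kinases that phosphorylate eIF2 were all detected at low levels and none passed the filter. Eif2ak1 (HRI), Eif2ak2 (PKR), Eif2ak3 (PERK) and Eif2ak4 (GCN2) together were at 21.5 and 25.1 CPM in shallow and deep barcodes of the 10% aliquot and at 16.3 and 25.1 CPM in the 90% aliquot. The highest of them by the mean, Eif2ak2, ranged from 4.03 to 10.9 CPM over the 4 values.

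The genes of the integrated stress response, which centres on eIF2 phosphorylation, were far from even between the groups. The list of 17 genes holds both regulators of eIF2 phosphorylation and genes that respond to it, and 16 were measured and tested. Of these, 11 were higher in shallow barcodes (68.75%) and 1 was lower (6.25%), beside 18.4% and 28.7% of all genes. The median log2 ratio was 0.97 and 1.39. Ppp1r15a, which brings a phosphatase to eIF2 and so reverses its phosphorylation, was at 395 and 48.0 CPM in the 10% aliquot and at 469 and 50.7 CPM in the 90% aliquot. Atf4, the transcription factor whose mRNA is translated when eIF2 is phosphorylated, was at 480 and 256 CPM in the 10% aliquot and at 621 and 281 CPM in the 90% aliquot. Its target Asns, for asparagine synthetase, went the opposite way, at 4.49 and 41.2 CPM and at 3.10 and 42.2 CPM. The immediate-early and dissociation genes moved with the list: 4 of 5 were called higher, and they summed to 1058 and 292 CPM in the 10% aliquot and to 1644 and 273 CPM in the 90% aliquot. The list shares Atf3 with those genes, and their part in its result was not tested.

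Of 14 genes of eIF3, the largest initiation factor, 5 were lower in shallow barcodes and 1 was higher. These are 35.7% and 7.14%, beside 28.7% and 18.4% of all genes, and the summed level barely differed, with ratios of 0.940 and 0.955. The lower genes included 2 of the 3 subunits that form the mobile b, g and i module at the mRNA channel. Eif3i was at 131 and 269 CPM in the 10% aliquot and at 141 and 301 CPM in the 90% aliquot (log2 ratios −0.98 and −1.04). Eif3b was at 45.8 and 85.3 CPM and at 50.1 and 107 CPM (−0.77 and −0.97), while Eif3g, at −0.63 and −0.54, stayed just outside the limit.

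Eif3d, the subunit with a cap-binding activity of its own, was at 35.0 and 92.6 CPM in the 10% aliquot and at 57.8 and 107 CPM in the 90% aliquot (−1.19 and −0.79). The core subunits were split. Eif3c was lower, with 132 and 262 CPM in the 10% aliquot and 93.5 and 170 CPM in the 90% aliquot (−0.94 and −0.80), a call lost in the long reads at −0.42. Eif3l was lower too, with 67.3 and 144 CPM and 71.6 and 146 CPM (−0.99 and −0.94). Eif3h was the 1 subunit called higher, at 498 and 324 CPM and at 612 and 397 CPM (0.61 and 0.61), just inside the limit, and its call was lost under TMM scaling, in the mean over barcodes and in the long reads. Eif3f, the most abundant subunit, had 551 and 435 CPM and 606 and 515 CPM (0.34 and 0.23) and was not called, as were Eif3a, Eif3e, Eif3k and Eif3m. Eif3j1 and Eif3j2 were not called either. Of the 50-base stretches in the last 500 bases of Eif3j2, 88.9% also occur in Eif3j1, so the level of Eif3j2 in particular is uncertain. In the other direction, 0 of 451 such stretches of Eif3j1 occur in Eif3j2.

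Of 10 tested genes of eIF4F, the complex that binds the cap and unwinds the leader, and its cofactors, 1 was higher in shallow barcodes and 1 was lower. These are 10% each, below the 18.4% and 28.7% of all genes. The scaffold and the main helicase did not differ by the limit, while the lesser helicase gene and an alternative cap-binding protein did. Eif4a1, which encodes the main RNA helicase of the complex, was at 401 and 375 CPM in the 10% aliquot and at 510 and 535 CPM in the 90% aliquot (log2 ratios 0.10 and −0.07). Eif4a2, a paralogue of near-identical function in initiation, was at 85.2 and 52.6 CPM in the 10% aliquot and at 153 and 84.2 CPM in the 90% aliquot (0.61 and 0.79). The ratio of Eif4a1 to Eif4a2 UMIs was accordingly smaller in shallow barcodes, at 4.71 (interval 3.76 to 5.94) against 7.13 (6.27 to 8.13) in the 10% aliquot and 3.33 (3.10 to 3.58) against 6.35 (6.09 to 6.63) in the 90% aliquot. The call of Eif4a2 was lost without barcodes holding markers of other cells, with shallow barcodes of 5000 to 15000 UMIs, under TMM scaling and in the long reads, with ratios of the same sign. None of the 50-base stretches in the last 500 bases of either gene was shared with the other. A pseudogene named after eIF4A, Eif4a-ps4, has a row of its own and is left out of these values. It was at 41.3 and 67.3 CPM in shallow and deep barcodes of the 10% aliquot and at 29.6 and 47.5 CPM in the 90% aliquot, opposite in direction to Eif4a2. Whether its UMIs stem from Eif4a1 or Eif4a2 was not tested, so the level of Eif4a2 and the ratio are uncertain to that extent.

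Eif4e2 encodes a cap-binding protein that does not bind the eIF4G scaffold and is known as a repressor. It was at 37.7 and 116 CPM in the 10% aliquot and at 56.6 and 134 CPM in the 90% aliquot (−1.40 and −1.12). Eif4e, the cap-binding subunit itself, was not called and leaned the other way, at 125 and 85.1 CPM and at 181 and 130 CPM (0.50 and 0.45). The scaffold gene Eif4g1 was even, at −0.01 and −0.08, and Eif4g2, Eif4g3, Eif4b, Eif4h and Eif4e3 were not called.

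The repressor Eif4ebp1, which blocks eIF4E until mTORC1 phosphorylates it, was at 370 and 374 CPM in the 10% aliquot and at 458 and 394 CPM in the 90% aliquot (−0.01 and 0.21), and Eif4ebp2 was not called. In the list of 22 genes of mTORC1 and eIF4E control, 14 were tested, 3 were higher in shallow barcodes (Ddit4, Sesn2 and Gigyf2) and 2 were lower (Akt1 and Cyfip1). These are 21.4% and 14.3%, beside 18.4% and 28.7% of all genes. Ddit4 and Sesn2 encode inhibitors of mTORC1, and Gigyf2 encodes the partner of the protein from Eif4e2. Gigyf2 was at 37.7 and 13.3 CPM in the 10% aliquot and at 48.0 and 17.4 CPM in the 90% aliquot, so that the partners differed in opposite directions.

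Eif5a and Eif6 were both lower in shallow barcodes, and their summed level was 933 and 1780 CPM in the 10% aliquot and 1074 and 2072 CPM in the 90% aliquot, ratios of 0.524 and 0.518. Eif5a, whose product carries the amino acid hypusine and eases both elongation and termination, was at 832 and 1575 CPM in the 10% aliquot and at 933 and 1852 CPM in the 90% aliquot (−0.91 and −0.98). In the 90% aliquot the quartiles of single barcodes ran from 422 to 1265 CPM in shallow and from 1514 to 2152 CPM in deep barcodes and did not overlap. In the 10% aliquot they ran from 402 to 1174 CPM and from 1164 to 1839 CPM and overlapped slightly. Eif6, which keeps the large subunit from joining too early, was at 101 and 204 CPM and at 140 and 218 CPM (−0.94 and −0.60). Its ratio in the 90% aliquot was just inside the limit, and the call was lost without barcodes holding markers of other cells and without the shared barcodes of the 90% table.

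The enzymes that make hypusine were lower in shallow barcodes as well. Dhps was at 11.7 and 40.4 CPM in the 10% aliquot and at 17.8 and 46.5 CPM in the 90% aliquot, and Dohh at 22.4 and 66.3 CPM and at 29.9 and 67.6 CPM. They were 2 of the 6 lower genes in the list of 15 poly(A)-binding and helper factors, of which none was higher and whose median log2 ratio was −0.46 and −0.45. The others were Pabpc4, Mcts2, Tma7 and Denr, which acts with the Mcts proteins in reinitiation. The 6 lower genes are 40% of the list, beside 28.7% of all genes called lower and 18.4% called higher. In the list for elongation and termination, 10 of 15 genes were tested, 2 were lower (Eef1b2 and Eef1g, subunits of the exchange factor of eEF1A) and 8 were not called. The 2 are 20% of those tested, below the 28.7% of all genes called lower.

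The ratios of the called members were not spread evenly over the UMI range. In the 90% aliquot Eif1 was at 1480 CPM in barcodes of 1000 to 3000 UMIs, at 2211 and 1732 CPM in the bins below 15000 UMIs, and at 1003, 1010 and 1032 CPM in the bins from 20000 UMIs upward. In the 10% aliquot its upper bins stood at 994, 698 and 888 CPM and differed beyond their intervals. Eif5a was at 635, 946 and 909 CPM in the lower bins and at 1618, 1924 and 1868 CPM in the upper ones. Eif4a1 varied between 379 and 559 CPM over the same bins with no step at the boundary. In the 10% aliquot, where the upper bins held between 16 and 44 barcodes, Eif5a still differed among deep barcodes, from 1122 to 1706 CPM.

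**Figure D2:**
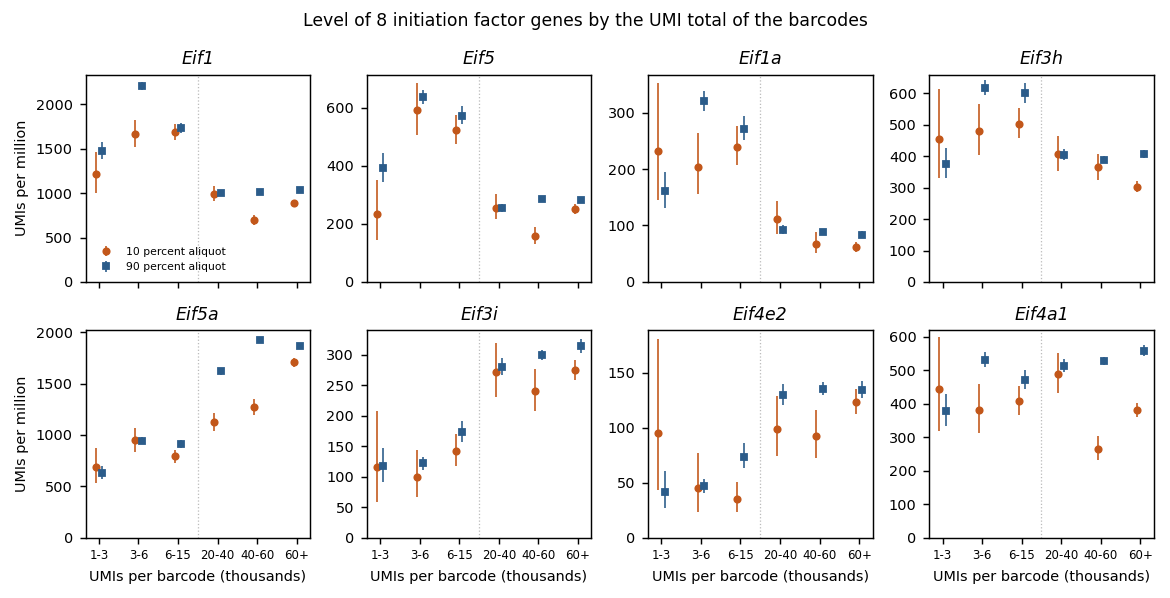
Level in CPM of 8 initiation factor genes in 6 bins of barcodes by UMI total, for the 10% aliquot (circles) and the 90% aliquot (squares), with 95% counting intervals and a dotted line between shallow and deep bins. Eif1, Eif5 and Eif1a are lower in every bin from 20000 UMIs upward than in the bins from 3000 to 15000 UMIs, and Eif5a, Eif3i and Eif4e2 are higher.

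Shallow barcodes that held UMIs of Rrm2, Top2a or Cdk1 gave a comparison within the same UMI range. In 21 such barcodes of the 10% aliquot and 148 of the 90% aliquot, no member was called higher than in shallow barcodes without those UMIs, beside 11.7% of all genes, and 2 members were called lower, beside 5.9% of all genes. Eif5 was at 275 CPM in barcodes with and 541 CPM in barcodes without cell cycle UMIs in the 10% aliquot, and at 374 and 615 CPM in the 90% aliquot (log2 ratios −0.95 and −0.70). The other was Eif2s3y, at 12.8 and 44.9 CPM and at 23.7 and 51.6 CPM. Barcodes with Y-linked UMIs were also fewer among those with cell cycle UMIs, 52 of 148 in the 90% aliquot.

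A further comparison, added after the Y-linked levels had been seen, set shallow barcodes with Xist and without Y-linked UMIs (11 in the 10% aliquot and 95 in the 90% aliquot) against shallow barcodes with Y-linked UMIs and without Xist (90 and 770), leaving out barcodes with markers of other cells. Of the 46 members, 3 were higher with Xist, beside 19.8% of all genes, and 8 were lower, beside 13.3% of all genes. The lower members were Eif1, Eif1a, Eif5, Eif3h, Eif3f, Eif4e, Eif4ebp1 and Eif2s3y, the last of which is one of the Y-linked genes that chose the barcodes and so had to differ, and the higher ones Eif5b, Eif2b5 and Eif2s3x, with Eif2b5 resting on 1 and 3 UMIs in the 10% aliquot.

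The members did not behave alike in it. In the 90% aliquot Eif1 was at 2154 CPM with Y-linked UMIs, 1107 CPM with Xist and 1015 CPM in deep barcodes, and Eif5 was at 665, 263 and 278 CPM. For both, the shallow barcodes with Xist stood near the deep ones. Eif5a, in contrast, was at 970, 921 and 1852 CPM, with both shallow sets below the deep one. In the 10% aliquot it was at 831 (interval 763 to 904), 551 (400 to 739) and 1575 CPM, so that the shallow sets differed there. Eif3i and Eif4e2 lay between in the 90% aliquot, at 129, 230 and 301 CPM and at 53.6, 82.1 and 134 CPM, but rested on 5 and 4 UMIs with Xist in the 10% aliquot. The shallow sets with Xist and with Y-linked UMIs differed in more than sex in the 90% aliquot. The quiescence markers Msc (83.5 and 876 CPM) and Sdc4 (104 and 875 CPM) were lower with Xist, as was Myod1 (162 and 1189 CPM). Pax7 went the other way, at 25.6 and 17.2 CPM. Rrm2 (121 and 17.9 CPM) and Top2a (76.7 and 5.41 CPM) were higher with Xist. The median UMI totals were 7243 and 4780. Sex, cell state and cell cycle cannot be told apart in this comparison, and the part of each was not tested.

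**Figure D3:**
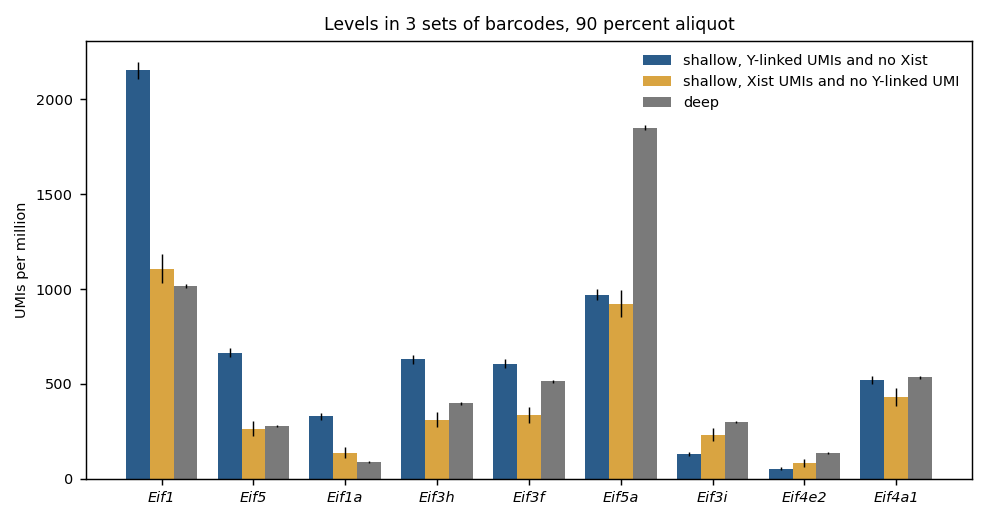
Level in CPM of 9 initiation factor genes in 3 sets of barcodes of the 90% aliquot, with 95% counting intervals: shallow with Y-linked UMIs and no Xist, shallow with Xist and no Y-linked UMI, and deep. Both shallow sets include barcodes with cell cycle UMIs. For Eif1 and Eif5 the Xist set lies near the deep set and far below the Y-linked set, and the bars of Eif5a in both shallow sets are about equal and below the deep one.

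The long reads of the 10% aliquot assign UMIs to isoforms, and the table holds 545 isoforms of 52 members. Of 41 members with at least 2 isoforms and 50 long-read UMIs in each group, 7 had an isoform whose share of the gene's UMIs differed by at least 20 percentage points between shallow and deep barcodes. That is 17.1%, where 17.5% of the 3230 genes meeting the same conditions had such a shift. The median of the largest shift was 8.88 points in members and 10.7 points in all genes. The long-read table counts more UMIs than the short-read one for the same barcodes, for Eif4a2 413 against 95 in shallow and 1006 against 268 in deep barcodes. Whether some of its UMIs are repeats of 1 molecule was not tested, and if so the intervals of the shares are too narrow.

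The isoforms of the eIF4A paralogues are shown at the places where they differ. Eif4a2-201, the annotated protein-coding form, has 407 codons before its stop in exon 11, the last. Eif4a2-204 carries an additional exon of 107 bases at chr16:23112351-23112457 (GRCm38, plus strand), so that its reading frame ends after 362 codons, 8 bases into exon 11 of 12. The following lines give the last 20 bases of exon 10 at chr16:23111877-23111896, which the isoforms share, and in capitals the first 10 bases after the junction, from chr16:23113167-23113176 in Eif4a2-201 and from chr16:23112351-23112360 in Eif4a2-204, where they end in the stop codon TAG.
Eif4a2-201: cgtgaaaactatattcacagAATTGGCAGA
Eif4a2-204: cgtgaaaactatattcacagGAGTCGATAG

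Eif4a2-210 instead lacks an exon of 140 bases, at chr16:23109120-23109259, and reads out of frame to a stop after 97 codons in exon 4 of 10. Its line gives the last 20 bases of exon 3 at chr16:23108832-23108851 and exon 4 from chr16:23109985-23110067, down to the stop codon in capitals. Eif4a1-204 keeps an intron of 71 bases, at chr11:69668334-69668404 on the minus strand, which the coding form Eif4a1-213 removes. The capitals of its line mark the first and last 2 bases of that intron, the GT and AG of a splice donor and acceptor.
Eif4a2-210: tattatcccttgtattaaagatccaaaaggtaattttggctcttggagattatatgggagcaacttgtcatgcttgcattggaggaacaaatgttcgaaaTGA
Eif4a1-204: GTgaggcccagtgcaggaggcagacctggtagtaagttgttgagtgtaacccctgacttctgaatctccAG

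**Figure D4:**
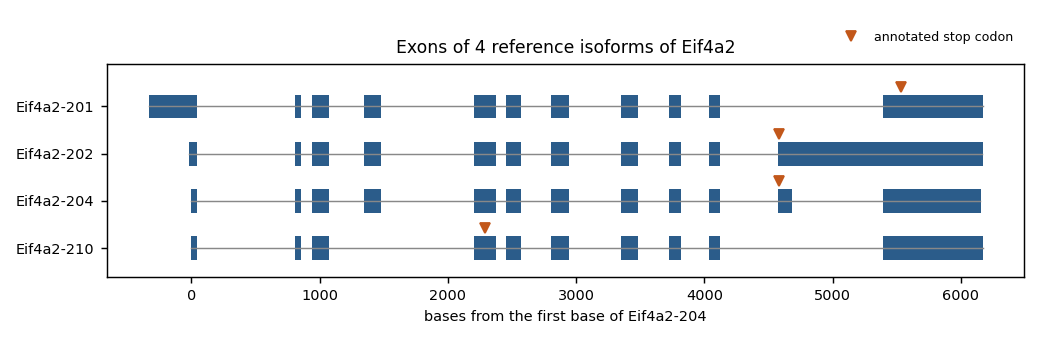
Exons (boxes) of 4 annotated isoforms of Eif4a2 along the gene in bases from the first base of Eif4a2-204, with the annotated stop codons as triangles. The stops of Eif4a2-204 and Eif4a2-202 lie at the same position, in an exon of 107 bases in the former and in a longer last exon with the same start in the latter, and that of Eif4a2-210 lies in the exon after the one it lacks.

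Eif4a2-204, annotated as a target of nonsense-mediated decay, had the most UMIs of its gene over both groups together and took a smaller share in shallow barcodes. It held 13.6% of 413 long-read UMIs in shallow barcodes (interval 10.4 to 17.2%) and 35.2% of 1006 in deep barcodes (32.2 to 38.2%), a difference of −21.6 points (−25.9 to −17.0). The isoform whose share was higher in shallow barcodes by the most has no reference name and spans chr16:23107759-23113947. It held 27.1% in shallow and 8.75% in deep barcodes. Eif4a2-210 held 6.78% and 0.795%, and Eif4a2-202, a coding form whose last exon starts where the additional exon of Eif4a2-204 starts and holds the same stop, 1.94% and 6.66%. Eif4a2-204 and Eif4a2-202 thus both held a smaller share in shallow barcodes, whereas the annotated decay target Eif4a2-210 held a larger one. Whether isoforms of the gene with no reference name also hold that stop was not tested.

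Eif4a1 stayed under the limit. Its coding form Eif4a1-213 held 60.8% of 2413 UMIs in shallow and 77.4% of 8894 UMIs in deep barcodes, a difference of −16.5 points (−18.7 to −14.4). Eif4a1-204, which keeps the intron shown above and meets a stop after 276 codons, held 10.0% and 2.81%. A further 6.67% in shallow and 0.663% in deep barcodes lay on an isoform that ends inside intron 4.

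**Figure D5:**
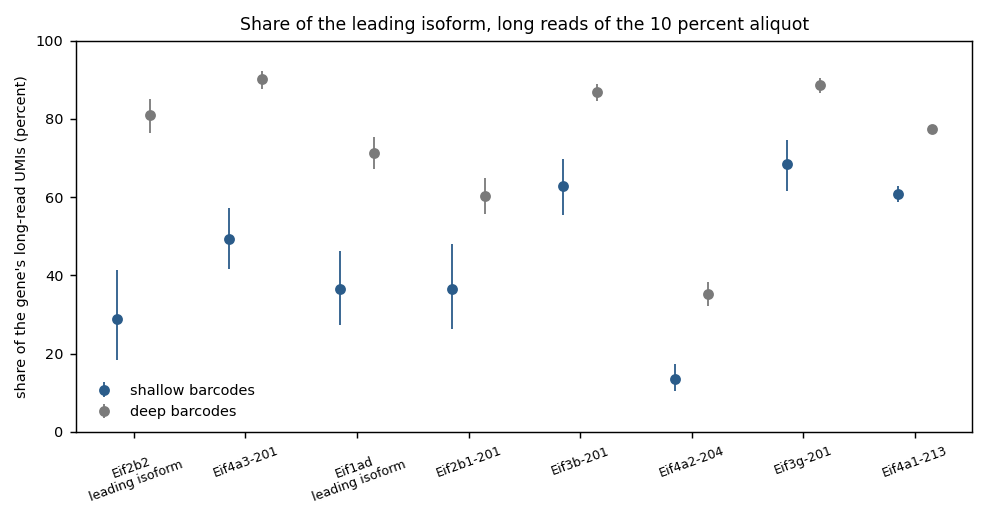
Share of the gene's long-read UMIs on the leading isoform, in percent, in shallow and deep barcodes of the 10% aliquot, for the 7 members with a shift of at least 20 points and for Eif4a1, with 95% exact intervals. The leading isoform is the one with the most UMIs over both groups, of which deep barcodes hold the larger number, so the choice itself favours isoforms with a high share in deep barcodes.

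For the 6 other members past the limit, the share is given for the isoform with the most UMIs over both groups. Deep barcodes hold most of those UMIs, so the choice favours an isoform with a high share there, and nothing is read from the common direction. Eif2b2 had its leading isoform, which has no reference name, at 28.8% of 66 UMIs in shallow and 81.0% of 331 in deep barcodes. Eif4a3, the helicase that marks exon junctions, had its coding form Eif4a3-201 at 49.4% of 164 and 90.1% of 669 UMIs, while its level was not called. Eif1ad had a leading isoform with no reference name at 36.4% of 107 and 71.4% of 475 UMIs.

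The remaining shifts were in Eif2b1 and in subunits of eIF3. Eif2b1-201 held 36.6% of 82 UMIs in shallow and 60.4% of 434 in deep barcodes. Eif3b-201 held 62.8% of 188 and 86.9% of 980 UMIs, and Eif3g-201 held 68.4% of 209 and 88.7% of 1075 UMIs. Several abundant members had no such shift, with largest differences of 0.560 points in Eif3h, 0.720 points in Eif3f and 2.42 points in Eif5a.

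Some of the isoforms with a larger share in shallow barcodes end early. In Eif2b1, an isoform that ends inside intron 2 held 35.4% of UMIs in shallow and 0.922% in deep barcodes. In Eif2b2, an isoform that ends inside intron 4 held 19.7% and none of the 331 UMIs of the deep barcodes (upper limit of the interval 1.11%). In Eif4a3, isoforms with an end more than 100 bases from the last exon of any protein-coding transcript held 25.6% in shallow and 1.35% in deep barcodes, and in Eif3b 21.3% and 2.35%. In Eif2b3 this share was 64.8% in shallow and 35.2% in deep barcodes. Over the 41 members, this share was higher in shallow barcodes in 24, or 58.5%, where it was higher in 1544 of 3196 genes in all, or 48.3%. The medians were 3.19% in shallow and 0.744% in deep barcodes for members and 3.57% and 1.28% for all genes. Whether the reads of such isoforms start at A-rich stretches inside introns was not tested.

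By annotated class, protein-coding isoforms held 38.9% of the members' long-read UMIs in shallow and 51.2% in deep barcodes, beside 37.3% and 43.7% over all genes. Isoforms with a retained intron or of another non-coding kind held 1.07% and 0.296% in members and 1.73% and 1.17% over all genes. In members, nearly all UMIs of this class came from the Eif4a1 isoform with a kept intron described above. Annotated decay targets held 0.418% and 0.450% in members and 0.839% and 0.639% over all genes. Most of their UMIs in members came from the decay targets of Eif4a2 described above. The member shares of these classes thus rest mainly on Eif4a1 and Eif4a2 and do not describe the members as a set. Isoforms with no reference name held 59.6% and 48.0% in members and 60.1% and 54.5% over all genes. Summed per gene, the long reads called 7 of 50 members higher and 13 lower by 1.5-fold, beside 24.8% and 30.9% of all genes. They gave the sign of the short-read log2 ratio of the 10% aliquot in all 18 called members and in 41 of 45 tested members with a long-read level. Since both kinds of read come from the same cDNA, this is not a replicate of the comparison.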

How the data were processed

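Gene counts were deposited by the authors as raw UMI counts per gene and barcode, made from the short reads with scPipe, without a stated filter of barcodes to cells. Isoform counts were deposited as raw long-read UMI counts that the authors made with FLAMES on mm10 and Gencode vM24, discarding reads without a unique isoform. The submitters' processing notes name GRCm38.p6, Cell Ranger 1.3 and minimap2 2.17. Symbols, coordinates, reading frames and printed sequences come from Gencode vM21 (GRCm38). Each aliquot was analysed on its own: 6772259 UMIs over 1991 listed barcodes in the 10% aliquot and 39044129 UMIs over 3001 in the 90% aliquot, of which 12 and 42 barcodes lay between shallow and deep and were not used. Doublets were not called, and the deepest 5% of deep barcodes were left out as an alternative. UMI counts were summed over barcodes and scaled to CPM with Python 3.11.15, pandas 2.3.3 and SciPy 1.17.1. Intervals are exact Poisson for levels, exact conditional binomial for ratios, Clopper-Pearson for shares and Newcombe for differences of shares. Barcodes with markers of other cells are those with any UMI of Ptprc, Tyrobp, Pecam1, Cdh5 or Pdgfra. A further planned marker is not reported here and was not used. TMM scaling, used as an alternative only, was run with edgeR 4.0.16 in R 4.3.3. The scripts were tested on simulated data.

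The genes, the lists and the comparisons were chosen with earlier results of these data known. Members described with values are Eif4a1, Eif4a2, the most abundant member of each role group, up to 8 with the largest ratio in each direction, and those with an isoform shift. The remaining called members and a few others were named after their values were seen.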

Additional observations from a re-analysis of the deposited data

How the results depend on the processing

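Over the alternatives run, the members called higher in shallow barcodes numbered from 3 to 8 and those called lower from 3 to 14, beside 6 and 12 as reported. Over the same alternatives, 5.45 to 24.8% of all genes were called higher and 8.34 to 33.8% lower, the lowest shares coming from testing all genes with a UMI. Adding 50 CPM left 5 lower members where 13.5% of all genes were lower, and a limit of 2-fold left 3 higher (Eif2s3y, Eif1a and Eif5) and 3 lower (Eif2b1, Eif2b5 and Eif4e2). The shares of all genes at 2-fold lay within the ranges above, and nothing is read from the 2-fold counts about the members as a set. The median log2 ratio of the members stayed between −0.21 and −0.03, beside −0.17 as reported, and the value nearest 0 came from centring on the median of all genes. The calls of Eif4a2, Eif3h, Eif6, Eif2s3x, Eif2s1, Eif2b1, Eif3b, Eif3c and Eif3d were each lost under at least 2 alternatives, and none of the log2 ratios of the 23 members followed reversed in 368 recomputed values, of which 20 moved beyond the counting interval. The ratio of Eif4a1 to Eif4a2 was smaller in shallow barcodes under every alternative run for it. With shallow barcodes of 5000 to 15000 UMIs, 1 member was higher with cell cycle UMIs instead of 0.

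The pathway lists depended more on scaling. Centring gave 2 higher and 0 lower genes of elongation and termination, 1 higher helper factor and 6 higher genes of mTORC1 and eIF4E control. The 2-fold limit left 0 lower genes of elongation and termination, and 1 higher and 1 lower gene of mTORC1 and eIF4E control. Leaving out the shared barcodes of the 90% table, an alternative chosen after seeing the data, gave 1 higher gene of elongation and termination, where 18.1% of all genes were higher. The shares of all genes called under centring and the 2-fold limit lay within the ranges given above. Nothing is read from these list counts. The isoform shifts depended on the limit, with 18 members past 10 points and 4 past 30 points, and with 11 of 48 when 20 UMIs per group were enough. With isoforms named after a reference transcript alone, 1 of 7 members was past the limit, since most isoforms carry no such name. The shares of all genes at these other limits are not given here, so nothing is read from these counts about the members. Of 47 recomputed isoform differences, 40 lay within the counting interval and 7 moved, 6 of them under the mean over barcodes.

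No paired analysis was possible because each aliquot is 1 library of 1 capture, no test was run and the labels give no replicate numbers to pair. With 1 capture, differences between animals were not measured, and 66 to 188 long-read UMIs in shallow barcodes limit the shares of Eif2b2, Eif2b1, Eif1ad, Eif4a3 and Eif3b.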
